A study of Mus musculus with 6 samples.

Results

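The heat shock proteins and chaperones were taken as the protein-coding genes of the deposited gene table whose symbol begins with Hspa, Hspb, Hspd, Hspe, Hsph, Hsp90, Dnaja, Dnajb, Dnajc or Cct followed by a number, together with Tcp1 and without the co-chaperone genes Hspbp1 and Hspbap1. This gave 81 of the 36065 genes in the table: 13 Hspa, 8 Hspb, 2 Hspd and Hspe, 1 Hsph, 3 Hsp90, 4 Dnaja, 13 Dnajb, 28 Dnajc and 9 chaperonin genes (Cct and Tcp1). The RNA-seq libraries came from 1-cell mouse embryos, all wild type (WT), that had been cultured with CBR-5884 and S-adenosylmethionine (CBR+SAM), with CBR-5884 alone (CBR), or with the solvent DMSO, and each of the 3 groups had 2 biological replicates, which makes 6 libraries. CBR-5884 is a small molecule that inhibits serine synthesis, and S-adenosylmethionine is the methyl donor of the cell. All groups thus share in vitro culture. The number of embryos in a library and their hours in culture are not given in the sources used here, and no group with S-adenosylmethionine alone was analysed.

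Chaperones bind unfolded or newly made proteins and keep them from clumping until they fold. Hsp70 proteins (Hspa genes) hold short stretches of client protein under the control of ATP. J proteins (Dnaj genes) bring them clients and trigger the ATP cycle, and Hsp110 proteins (Hsph1, Hspa4, Hspa4l) release the nucleotide. Hsp90 proteins mature kinases and receptors, the ring-shaped chaperonins fold proteins inside a chamber (Hspd1 with its lid Hspe1 in mitochondria, the CCT ring in the cytosol), and small heat shock proteins (Hspb genes) hold aggregating proteins. A fully grown oocyte stores mRNA of many of these genes, and the stress-inducible Hspa1b is known as one of the earliest genes transcribed from the mouse zygote's own genome. In cells under stress, heat shock factors act through heat shock elements in promoters, and the unfolded protein response of the endoplasmic reticulum (ER) acts through ER stress elements.

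Promoters were read from RefSeq (GRCm38.p6, the assembly also called mm10) for the 66 members that matched by symbol, as 85 windows of 300 bases, 250 before and 50 from the start site on. The ER stress element, spelled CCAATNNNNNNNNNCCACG and sought on both strands, was found in 3 of these windows, those of Hspa5, Hsp90b1 and Dnajc3, and in 39 (0.119%) of the 32851 promoter windows of all genes. The 150 bases before each of the 3 start sites are shown because all of these genes encode ER chaperones whose values are set side by side further on, with the element in capitals. The Hspa5 stretch is chr2:34771940-34772089 on the + strand, the Hsp90b1 stretch chr10:86705445-86705594 on the - strand, and the Dnajc3 stretch chr14:118937782-118937931 on the + strand.
Hspa5: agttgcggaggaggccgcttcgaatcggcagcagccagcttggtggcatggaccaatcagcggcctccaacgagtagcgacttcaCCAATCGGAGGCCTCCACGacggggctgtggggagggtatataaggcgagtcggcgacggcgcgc
Hsp90b1: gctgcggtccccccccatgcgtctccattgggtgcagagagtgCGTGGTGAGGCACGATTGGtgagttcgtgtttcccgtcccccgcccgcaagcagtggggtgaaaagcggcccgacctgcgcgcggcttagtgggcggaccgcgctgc
Dnajc3: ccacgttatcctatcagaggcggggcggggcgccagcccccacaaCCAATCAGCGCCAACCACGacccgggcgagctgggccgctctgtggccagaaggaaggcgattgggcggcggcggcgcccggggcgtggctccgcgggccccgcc
In Hsp90b1 the capitals read the element on the opposite strand, and a second match lay further upstream, from base -212 to base -194 of the start site.

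The heat shock element was sought on both strands as 2 units (GAANNTTC or TTCNNGAA) and as 3 units (GAANNTTCNNGAA or TTCNNGAANNTTC, in which the shorter forms are contained). The 2-unit form was in 21 of the 85 member windows (24.7%) and in 15.1% of all windows. The 3-unit form was in 6 member windows, of Dnajb6, Hspd1, Hspe1 and Hsph1, and in 0.603% of all windows. Dnajb6 and Hsph1 entered with overlapping windows of alternative start sites, and the Hspd1 window overlapped that of Hspe1. The same element can therefore be counted in several windows. A stretch is shown for Hspe1, which lies head to head with Hspd1, and for Hspa1b, whose level was near 0 in these embryos, with the 3-unit form in capitals in the first and the 2-unit form in the second. The Hspe1 stretch is chr1:55087998-55088147 on the + strand and the Hspa1b stretch chr17:34959239-34959388 on the - strand.
Hspe1: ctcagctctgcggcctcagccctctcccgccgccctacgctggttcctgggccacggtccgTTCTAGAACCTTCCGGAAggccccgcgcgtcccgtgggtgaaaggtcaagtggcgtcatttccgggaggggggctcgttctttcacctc
Hspa1b: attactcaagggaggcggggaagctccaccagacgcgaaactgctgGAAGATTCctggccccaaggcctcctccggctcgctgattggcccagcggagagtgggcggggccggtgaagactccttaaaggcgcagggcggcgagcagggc
The Hspe1 capitals hold 2 overlapping 3-unit matches, and the window of an alternative start site of Hspd1 shared 285 bases with the Hspe1 window. The matching stretch of Hspa1a, the neighbour and near copy of Hspa1b, had the same element at the same place, from base -104 to base -97, and the whole windows of these genes were identical at 296 of 300 bases.

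Of the 81 members, 61 reached a value of 1 in 2 or more libraries, the minimum for a test, and 60 of these had it in all 6. The exception was Dnajc28. Of the 20 members below the minimum 5 were listed at 0 in every library (Cct8l1, Dnajb8, Hspb2, Hspb8 and Hspb9), and the highest single value among the other 15 was 1.08. The deposited values carry no stated unit. They were read as abundances per transcript length, because the submitters' processing notes name kallisto and each library sums to between 956209 and 1059424, and every ratio between genes rests on that reading. The read depth was not given with the values, and no counting interval can be attached to them. Summed over members they made up 0.793% to 0.949% of a library's total.

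Hsp90aa1, the stress-inducible cytosolic Hsp90, was the most abundant member in every library. It stood at 2904 and 3430.0 with CBR+SAM, at 2985 and 3739 with CBR, and at 2532 and 3006 with DMSO. Its constitutive relative Hsp90ab1 stood at 206 and 104 with CBR+SAM, at 174 and 231 with CBR, and at 161 and 183 with DMSO. Hsp90aa1 was thus 14.1 to 33.1 times as high as Hsp90ab1 within a library, and the largest ratio was that of CBR+SAM replicate 2. The next members by mean over the 6 libraries were the cytosolic J protein genes Dnajb4 (783) and Dnaja1 (609), the spliceosome-associated Dnajc8 (608), Dnajb6, which keeps aggregation-prone proteins soluble (395), Dnajc14 (355) and the CCT subunit gene Cct8 (329).

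**Figure D1:**
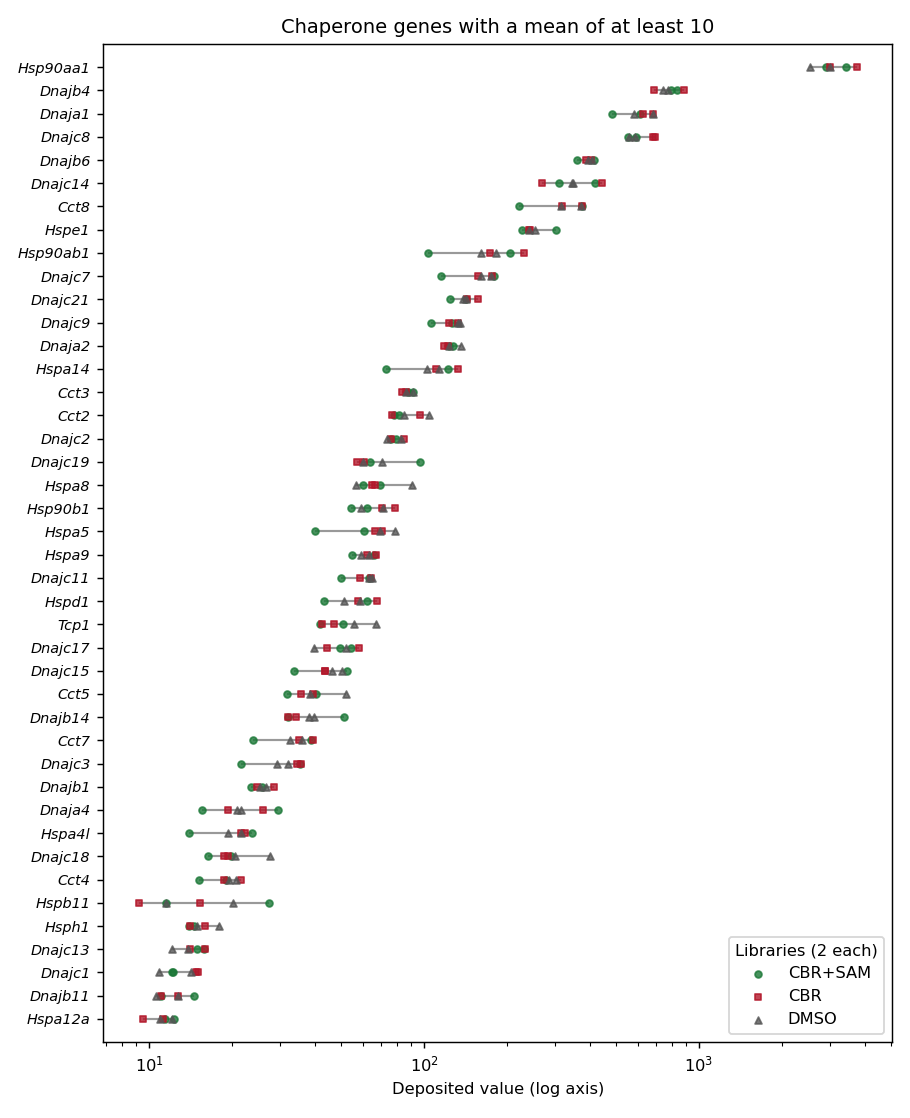
Deposited values (log axis) of the 42 chaperone genes with a mean of at least 10, ordered by mean. Each point is 1 of the 6 libraries (circles CBR+SAM, squares CBR, triangles DMSO), and the line joins the lowest and highest value. Hsp90aa1 stands apart at the top, and for many genes the lowest point is a CBR+SAM library.

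Among the Hsp70 genes, Hspa14, a ribosome-associated Hsp70, had a mean of 109, the highest of the family as long as Hspa8 is taken without its near-identical copies, and its known partner on the ribosome, the J protein gene Dnajc2, had a mean of 78.5. Hspa8, the constitutive cytosolic Hsp70, had a mean of 67.9, the ER chaperone Hspa5 (BiP) of 64.2 and the mitochondrial Hspa9 of 61.8. The inducible Hsp70 genes stood near 0. Hspa1b stood at 0.268 and 1.08 with CBR+SAM, at 0.543 and 0.383 with CBR, and at 0.583 and 0.196 with DMSO. Hspa1a stayed at or below 0.166 in all libraries, and neither gene was high enough to be tested. The heat shock factor gene Hsf1 stood at 31.0 and 23.5 with CBR+SAM, at 31.9 and 27.7 with CBR, and at 29.7 and 30.0 with DMSO.

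The 7 tested subunit genes of the CCT ring, in which every subunit has its own place, were far from equal. Their means were 329 for Cct8, 87.3 for Cct3, 86.9 for Cct2, 50.7 for Tcp1, 39.7 for Cct5, 34.3 for Cct7 and 19.2 for Cct4. Cct8 was 14.7 to 19.9 times as high as Cct4 within a library. Cct2 and Cct3 differed by less than the spread between libraries, at 76.6 to 104 and 82.8 to 91.5. In mitochondria, Hspe1 (mean 251) was 3.57 to 6.96 times as high as Hspd1 (mean 56.7), and again the largest ratio was that of CBR+SAM replicate 2. Hspe1 and Hspd1 overlap by 112 exon bases on opposite strands in GENCODE M21, and the protocols describe no strand marking. They are not alone in this. In all, 24 members overlap exons of another gene, and 22 do so on the opposite strand, among them Cct7, Cct8 and Tcp1.

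Small heat shock proteins were sparse, and of the 8 genes 3 were tested. Hspb11, which also goes by the name of an intraflagellar transport subunit, had a mean of 15.9, Hspb1 of 8.51 and Hspb6 of 6.70. The crystallin relatives Cryaa, Cryab and Odf1 were all below the minimum for a test. Among J proteins of the nucleus, the histone-binding Dnajc9 had a mean of 126, and among those of the mitochondrial import motor Dnajc19 and Dnajc15 had means of 68.0 and 44.9.

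Some members share sequence with other records of the table, and the division of their reads is uncertain. A search of the M21 transcripts found records at least 95% identical over at least 50% of their own length for 16 of the 81 members. These are called copies here. For Dnajc14 and Dnajc30, however, the record was a gene overlapping on the opposite strand (Ormdl2 and Bud23). For Hspa8 the copies held 58.1% of the joint value. The processed pseudogene Gm15459 was 99.7% identical to Hspa8 over 1941 bases and stood at 102 and 67.9 with CBR+SAM, at 85.1 and 94.7 with CBR, and at 86.5 and 128 with DMSO, above Hspa8 itself in every library. Jointly with all its copies, Hspa8 would stand at 172 and 128 with CBR+SAM, at 150.1 and 161 with CBR, and at 143 and 219 with DMSO. The record AC117239.2, 99.0% identical to Hspe1, had a mean of 76.0, and Gm15542, 99.4% identical to Dnaja1, had a mean of 28.1.

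**Figure D2:**
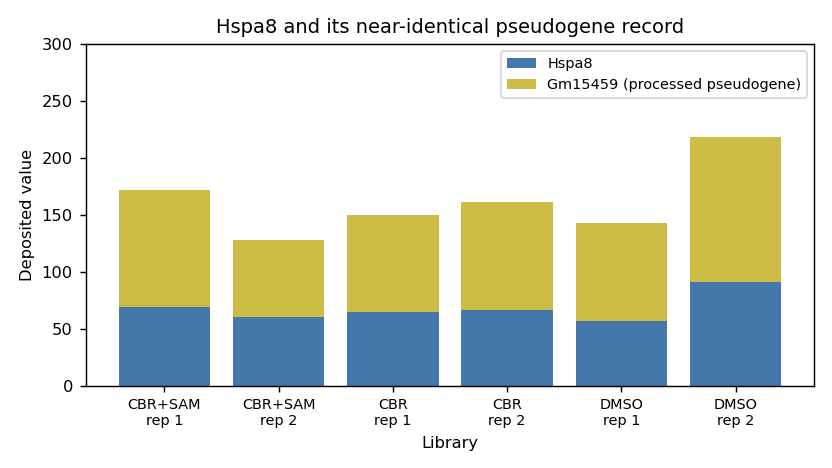
Deposited values of Hspa8 (lower part of each bar) and its near-identical processed pseudogene Gm15459 (upper part) in each of the 6 libraries, by group and replicate. The pseudogene record holds more than Hspa8 in every library, and DMSO replicate 2 has the highest joint bar.

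The library CBR+SAM replicate 2 stood apart from the others in the chaperone genes. It held the lowest value of the 6 libraries for 30 of the 61 tested members (49.2%), while the other libraries held 3 to 10 each. Over all 12249 genes tested it held the lowest value for 27.5% and the highest for 29.3%, so it stood apart in both directions across the table. With genes below a mean of 10 left out, it held the lowest value for 23 of 42 members (54.8%) and for 36.3% of all genes. The median difference between replicate 2 and replicate 1 over the members was -0.19 with CBR+SAM, 0.04 with CBR and 0.09 with DMSO, on the log2(value + 1) scale. Hspa5 stood at 40.1 there and at 60.4 to 78.6 in the other 5 libraries, Hsp90ab1 at 104 against 161 to 231, Cct8 at 222 against 315 to 375, and Dnajc7, a bridge between Hsp70 and Hsp90, at 115 against 157 to 180.0. Hspe1, Dnajc19 and Hspb11 were highest in it, with Dnajc19 at 96.8 against 57.0 to 70.0.

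Markers of other cells in that library were as follows. The summed cumulus cell markers (2 of 10 reached a value of 1 in any library, Inha was at 0 in all) stood at 237 there and at 509 to 616 in the other libraries, and nearly all of that was Serpine2, at 224.5 against 496 to 602. The cumulus aromatase gene Cyp19a1 stood at 11.9 there and at 8.14 to 13.6 elsewhere. The 11 oocyte and zygote markers were all well detected and summed to 50285 there, against 39011 to 43902. Sperm markers summed to 13.1 to 17.3 over the 6 libraries, with Prm2 as the main one and Tnp1 at 0 in all, oviduct markers to 2.65 to 4.20 and blood markers to at most 0.635. The part of these differences in the results was not tested. In RNA from whole embryos, fewer cells of a type and less RNA per cell cannot be told apart.

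**Figure D3:**
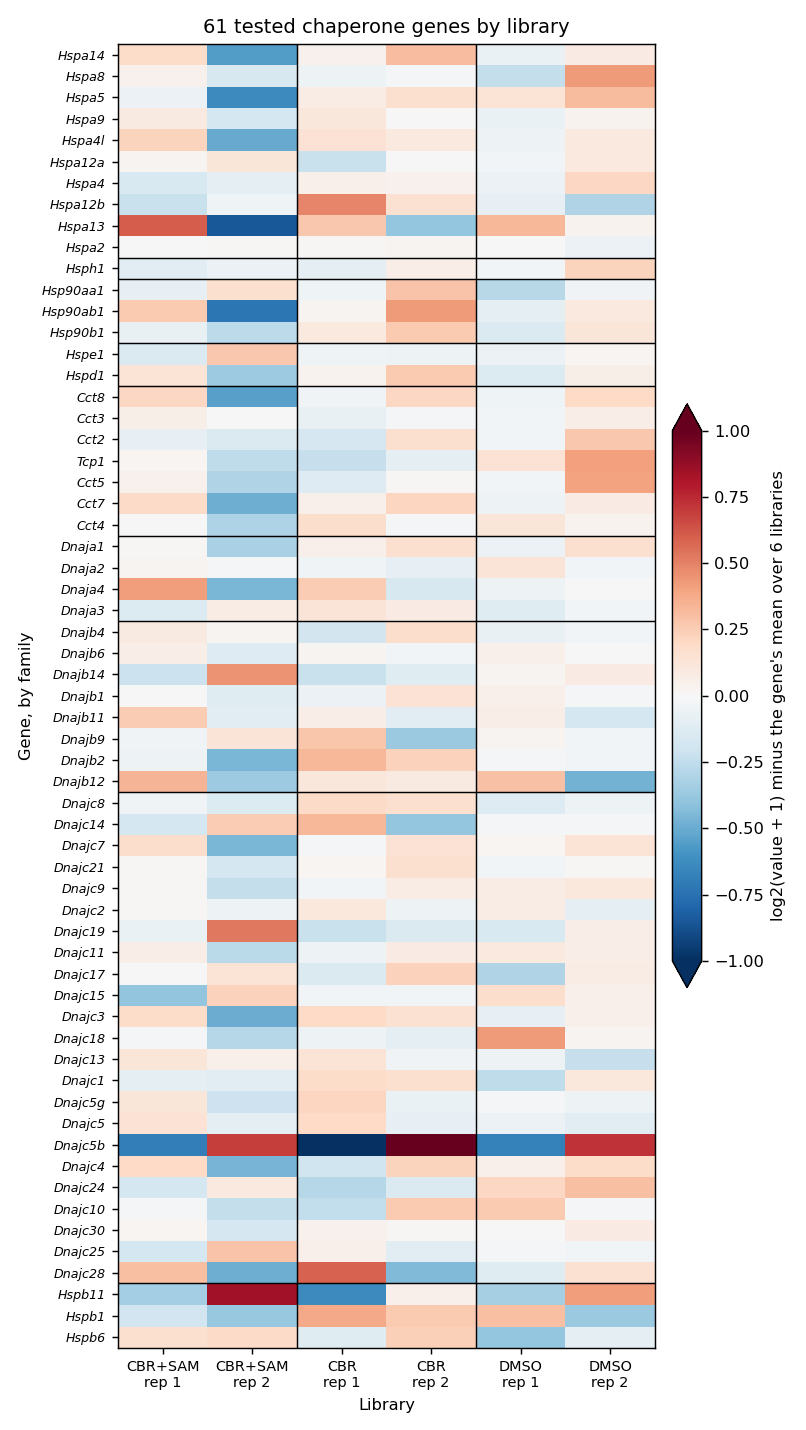
The 61 tested chaperone genes (rows, by family, highest mean first) in the 6 libraries (columns). Colour is log2(value + 1) minus the gene's mean over the libraries, red above and blue below, cut at 1 and -1. The CBR+SAM replicate 2 column is mostly blue, and Dnajc5b splits by replicate number in every group.

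CBR was set against DMSO to see whether chaperone transcripts differ when serine synthesis is inhibited. None of the 61 tested members passed (0.0% of all 12249 genes were called), in a limma fit with p-values adjusted by Benjamini-Hochberg across the whole table, and the smallest adjusted p was 1.00. At an unadjusted p under 0.05 there were 3 members, beside 2.12% of all genes (0.816% higher and 1.31% lower). The changes were small: 60 of 61 lay within 0.5 on the log2 scale, 31 were above and 30 below 0 (48.3% and 51.7% of all genes), and the median was 0.01, beside -0.01 over all genes tested. For 56 members the 95% interval excluded a log2 change of 1 in either direction.

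The 3 members were Tcp1, Dnajc24 and Hspa12b. Tcp1, a CCT subunit gene, stood at 42.4 and 47.0 with CBR and at 55.5 and 66.6 with DMSO. The groups did not overlap, CBR being the lower, and the log2 change was -0.44 (SE 0.17, 95% interval -0.85 to -0.03, unadjusted p = 0.0396 and adjusted p = 1.00, limma). Dnajc24, a J protein needed to make diphthamide on elongation factor 2, stood at 4.49 and 5.05 with CBR and at 6.72 and 7.23 with DMSO, a log2 change of -0.47 (SE 0.19). Hspa12b, a distant Hsp70 relative known from blood vessels, stood at 6.70 and 5.07 with CBR and at 4.18 and 3.45 with DMSO, a log2 change of 0.51 (SE 0.21). Neither of these passed either.

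In all, 16 of the 61 members (26.2%) had groups that did not overlap, beside 33.0% of all genes tested. Of these 10 were higher (15.7% of all genes) and 6 lower (17.3%) with CBR. On the higher side Dnajc8 stood at 692 and 677 with CBR and at 554 and 585 with DMSO (log2 change 0.27, 95% interval -0.04 to 0.57). Dnajb2, whose protein binds ubiquitin-tagged clients, stood at 6.11 and 5.63 with CBR and at 4.58 and 4.55 with DMSO. Dnajc1, an ER J protein gene, stood at 15.1 and 14.8 with CBR and at 10.9 and 14.2 with DMSO. The remaining named genes of that side, Dnajc13 of endosomes and the mitochondrial Dnaja3, had log2 changes of 0.19 and 0.17. On the lower side Dnajc18, Dnajb14 of the ER membrane, Dnaja2 and the import motor gene Dnajc15 had log2 changes of -0.30, -0.23, -0.11 and -0.14.

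The stress-response genes high enough to be tested, and the constitutive Hspa8, gave intervals around 0. The inducible Hspa1a and Hspa1b were too low for a test. Hsp90aa1 averaged 3362 ± 533 with CBR and 2769 ± 335 with DMSO (SD, n = 2 each), and its groups overlapped, with a log2 change of 0.28 (-0.15 to 0.70). Hspb1 stood at 11.1 and 10.1 with CBR and at 10.4 and 6.17 with DMSO (0.36, -0.22 to 0.94). Dnajb1, an inducible partner of Hsp70, stood at 24.6 and 28.4 with CBR and at 26.6 and 25.4 with DMSO. Hsph1 averaged 15.0 ± 1.29 with CBR and 16.4 ± 2.13 with DMSO. Hspa8 had a log2 change of -0.13 with all libraries and of 0.21 without DMSO replicate 2, in which it stood at 90.6 against 56.6 in DMSO replicate 1. Hspa5 stood at 66.3 and 70.5 with CBR and at 69.1 and 78.6 with DMSO (-0.11, -0.60 to 0.39).

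Among genes that work with the members, listed with earlier results known, 8 of the 9 genes for prefoldin and other CCT partners had negative changes (median -0.14), and groups did not overlap for 4 lower genes and 1 higher gene, Pfdn2, beside 17.3% lower and 15.7% higher over all genes. Vbp1, a prefoldin subunit gene, stood at 112 and 109.9 with CBR and at 158 and 128 with DMSO (log2 change -0.35, 95% interval -0.73 to 0.02). Of the 7 CCT genes 5 had negative changes. In the other lists the split was 4 positive of 5 for heat shock factors and their binding proteins, 5 of 13 for Hsp70 co-chaperones, 8 of 14 for Hsp90 co-chaperones, 7 of 14 for ER folding and stress sensors, and 3 of 9 for mitochondrial proteostasis. No gene of these lists passed the adjusted threshold in any of the 3 comparisons.

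**Figure D4:**
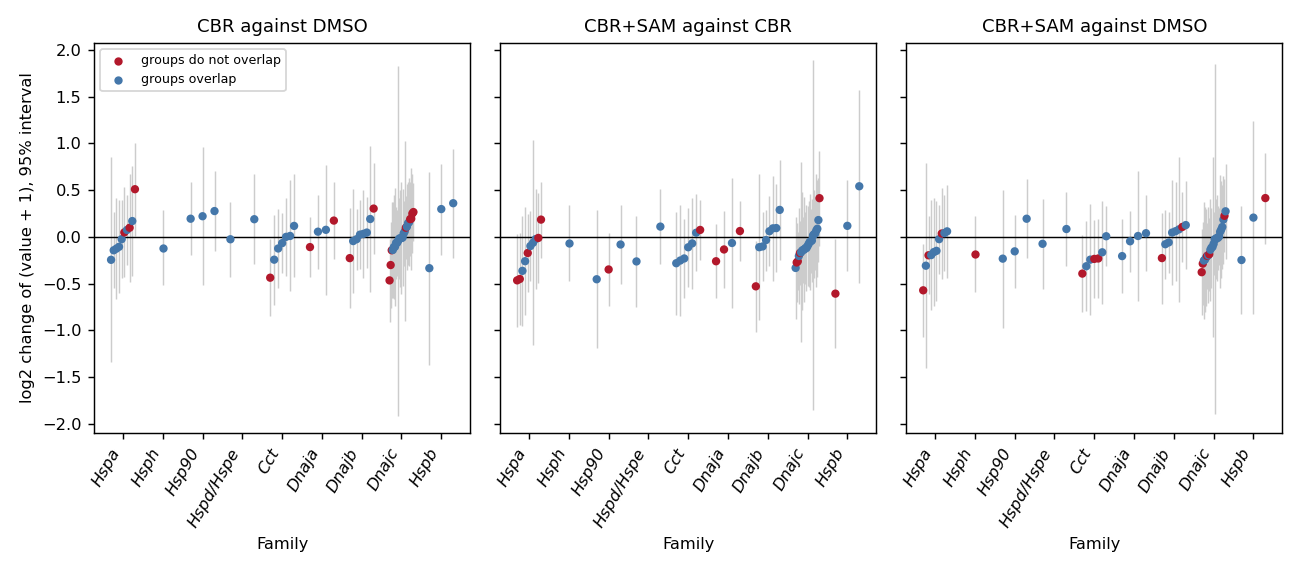
log2 change of (value + 1) of each tested chaperone gene in the 3 comparisons, by family, with its 95% interval (grey). Red points have groups that do not overlap, blue points have groups that do. Most points lie within 0.5 of 0, and in both comparisons of CBR+SAM more points lie below 0 than above.

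CBR+SAM was set against CBR to see whether the added methyl donor goes with a difference in inhibited embryos. This comparison shares the CBR libraries with the first comparison, so that a value peculiar to CBR would appear in both with opposite sign. None of the 61 members passed (0.00816% of all genes were called), and the smallest adjusted p was 0.988 by limma. More members had negative than positive changes, 43 against 18, with a median of -0.10, while 47.6% of all genes tested were below and 52.4% above 0, with a median of 0.01. Without CBR+SAM replicate 2 the members split into 30 negative and 31 positive, with a median of 0.01. CBR+SAM replicate 1 then stood alone for its group, here and wherever replicate 2 is left out below.

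The ER chaperones with an ER stress element were all lower on average with CBR+SAM than with CBR. A negative change was also found for 43 of all 61 tested members, and whether the element goes with the change was not tested. Hspa5 stood at 60.4 and 40.1 with CBR+SAM and at 66.3 and 70.5 with CBR, a log2 change of -0.47 (SE 0.21, 95% interval -0.96 to 0.03, adjusted p = 0.988, limma). Hsp90b1, the ER Hsp90, stood at 61.9 and 54.4 with CBR+SAM and at 70.1 and 78.5 with CBR, a log2 change of -0.35 (SE 0.17, -0.74 to 0.04). Both CBR+SAM libraries lay below both CBR libraries for these 2 genes. Dnajc3, an ER co-chaperone and inhibitor of the kinase PERK, stood at 35.4 and 21.7 with CBR+SAM and at 35.8 and 34.5 with CBR, so that only 1 of its CBR+SAM libraries was low. Without CBR+SAM replicate 2 the log2 changes were -0.18 for Hspa5, -0.26 for Hsp90b1 and 0.01 for Dnajc3. In CBR against DMSO, which uses the same CBR libraries, they were -0.11 for Hspa5 and 0.19 for both Hsp90b1 and Dnajc3. In CBR+SAM against DMSO they were -0.57 for Hspa5, -0.16 for Hsp90b1 and -0.14 for Dnajc3. The groups of Hsp90b1 and of Dnajc3 overlapped in that comparison.

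The other ER lumen genes did not share that pattern in full. Of all 8, 6 had negative changes (median -0.21), which became 4 of 8 (median -0.01) without CBR+SAM replicate 2. Dnajc1 stood at 12.2 in both CBR+SAM libraries, and at 15.1 and 14.8 with CBR. Dnajb11, a J protein that works with BiP, averaged 12.8 ± 2.49 with CBR+SAM and 11.9 ± 1.13 with CBR, and Dnajb9 averaged 9.56 ± 0.824 with CBR+SAM and 9.15 ± 3.16 with CBR. Of the 14 tested genes for ER folding enzymes and stress sensors outside the members, 10 had negative changes. The disulfide isomerase gene Pdia3 stood at 119.5 and 60.4 with CBR+SAM and at 125 and 114 with CBR, and the secreted factor gene Manf at 101 and 131 with CBR+SAM and at 89.8 and 92.1 with CBR.

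**Figure D5:**
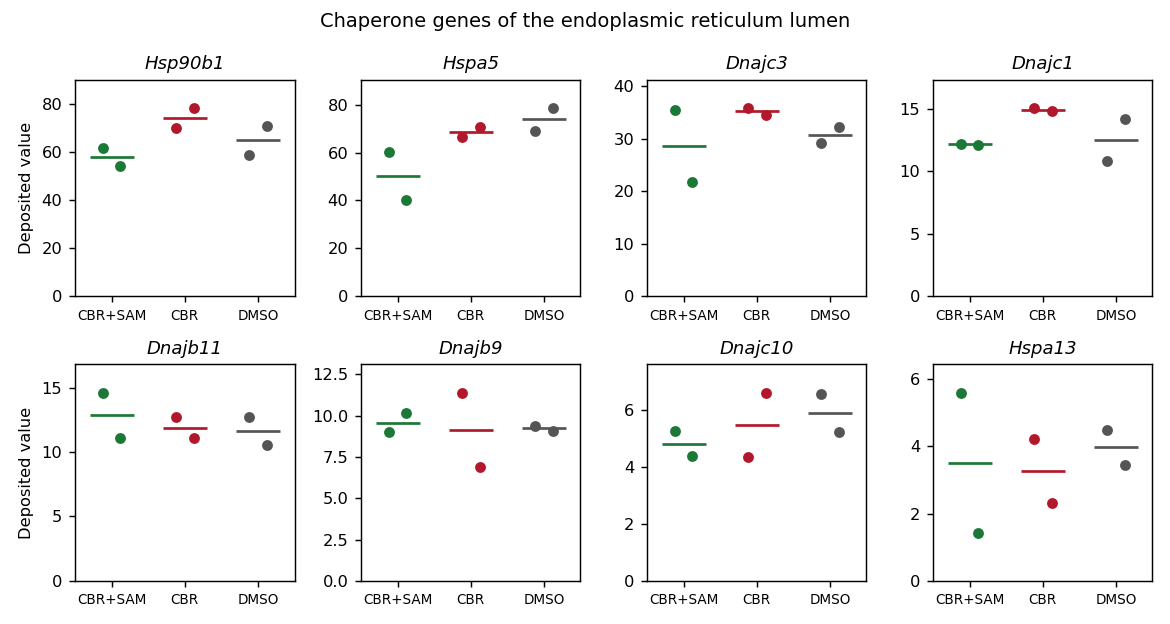
Deposited values of the 8 chaperone genes of the ER lumen with CBR+SAM, CBR and DMSO. Points are the 2 libraries of a group (replicate 1 left, replicate 2 right), lines are their means, and each axis starts at 0. Hspa5, Hsp90b1 and Dnajc1 have both CBR+SAM points below both CBR points, and Dnajc3 and Hspa13 have 1 low CBR+SAM point.

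The 2 members with an unadjusted p under 0.05 were Hspb1 and Dnajb2, both lower, and 3.09% of all genes reached that (1.73% higher and 1.36% lower). Hspb1, a small heat shock protein that also binds actin, stood at 7.14 and 6.12 with CBR+SAM and at 11.1 and 10.1 with CBR. The groups did not overlap, and the log2 change was -0.61 (SE 0.25, unadjusted p = 0.0428, limma). The DMSO libraries, at 10.4 and 6.17, spanned most of that range. Dnajb2 stood at 4.48 and 3.13 with CBR+SAM and at 6.11 and 5.63 with CBR, a log2 change of -0.53 (SE 0.21, unadjusted p = 0.0365). Without CBR+SAM replicate 2 the changes were -0.51 for Hspb1 and -0.33 for Dnajb2.

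Groups did not overlap for 16 members (26.2%, beside 27.5% of all genes tested), 4 higher (15.0% of all genes) and 12 lower (12.5%). Dnajc8 stood at 590.4 and 552 with CBR+SAM and at 692 and 677 with CBR (log2 change -0.26, 95% interval -0.57 to 0.05). Hspa12b stood at 3.70 and 4.32 with CBR+SAM and at 6.70 and 5.07 with CBR. Both genes had been higher with CBR than with DMSO, from the same CBR libraries. On the higher side Dnajc19 stood at 63.7 and 96.8 with CBR+SAM and at 57.0 and 60.4 with CBR (0.41, -0.10 to 0.92). Hspa12a, Cct3 and Dnaja2 followed with log2 changes of 0.18, 0.07 and 0.06.

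A group of 8 cytosolic Hsp70, Hsp110 and Hsp90 genes (Hspa2, Hspa4, Hspa4l, Hspa8, Hspa14, Hsph1, Hsp90aa1 and Hsp90ab1) had 8 negative changes with CBR+SAM against CBR (median -0.13), and 4 without CBR+SAM replicate 2 (median -0.00). The distant relatives Hspa12a (0.18) and Hspa12b (-0.45), which are not in that group, differed in sign. Hsp90ab1 averaged 155 ± 72.6 with CBR+SAM and 203 ± 40.0 with CBR, with a log2 change of -0.45 that became 0.04 without that library. Hspa14 averaged 97.4 ± 35.0 with CBR+SAM and 122 ± 15.9 with CBR, and its change of -0.36 became 0.01. Of the CCT ring 5 of 7 had negative changes (median -0.11), and 2 of 7 without that library (median 0.10). For prefoldin and other CCT partners 8 of 9 changes were positive (median 0.16), and no value without that library is given for this list. In CBR against DMSO 8 of 9 had been negative, from the same CBR libraries. In CBR+SAM against DMSO 6 of 9 were positive (median 0.05).

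CBR+SAM was set against DMSO to see how far embryos given both compounds stood from the control, and this comparison shares libraries with both others. None of the 61 members passed (0.00816% of all genes were called), and the smallest adjusted p was 1.00 by limma. Negative changes numbered 39 (51.0% of all genes) and positive ones 22 (49.0%), with a median of -0.08 beside -0.00 over all genes tested. Without CBR+SAM replicate 2 they numbered 33 and 28, with a median of -0.02. With every library scaled to the same total they numbered 49 and 12 with a median of -0.16, and the median over all genes was then -0.08, so that the whole table shifted with the members. Hspa5 was the 1 member at an unadjusted p under 0.05, which 2.14% of all genes reached (1.01% higher and 1.13% lower). It stood at 60.4 and 40.1 with CBR+SAM and at 69.1 and 78.6 with DMSO. Both CBR+SAM libraries were the lower ones, and the log2 change was -0.57 (SE 0.21, 95% interval -1.07 to -0.08, adjusted p = 1.00, limma). It was -0.28 without CBR+SAM replicate 2, with replicate 1 alone for its group.

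Groups did not overlap for 15 members (24.6%, beside 24.5% of all genes tested), 4 higher (12.4% of all genes) and 11 lower (12.1%). Tcp1 stood at 50.8 and 41.7 with CBR+SAM and at 55.5 and 66.6 with DMSO (log2 change -0.39, 95% interval -0.80 to 0.02). Cct2 stood at 81.4 and 77.9 with CBR+SAM and at 84.6 and 104 with DMSO. Of the 7 CCT genes 6 had negative changes (median -0.24), and 4 without CBR+SAM replicate 2 (median -0.07). Dnajc9 stood at 127 and 106 with CBR+SAM and at 132 and 135 with DMSO. Jointly with its copy Gm16550 it would stand at 135.1 and 115.0 with CBR+SAM and at 132.4 and 135.3 with DMSO, and the groups would overlap. Dnajc18 and Dnajc24 had log2 changes of -0.38 and -0.29. On the higher side Hspb6, a small heat shock protein of muscle, stood at 7.51 and 7.71 with CBR+SAM and at 4.84 and 6.14 with DMSO (0.42, -0.07 to 0.90), and Dnajc13, Dnajb4 and Hspa2 had changes of 0.23, 0.11 and 0.04.

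Dnajc5b, a relative of the cysteine string protein gene Dnajc5, differed far more between replicates than between groups. It stood at 3.42 and 10.5 with CBR+SAM, at 2.31 and 14.1 with CBR, and at 3.48 and 10.8 with DMSO, so that every second replicate lay above every first one. Hspb11 had the same order within each group, at 11.5 and 27.3 with CBR+SAM, 9.21 and 15.4 with CBR, and 11.6 and 20.2 with DMSO. Dnajc5 itself stayed between 8.09 and 10.3. The labels name no batch behind the replicate numbers.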

How the data were processed

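The deposited table gives 1 signal value per Ensembl gene and library. Tools named in the submitters' processing notes are kallisto, fastp and DESeq2, with the build mm10 and no versions or settings. Per the labels' protocols, cDNA was made with SMART-Seq v4 and libraries with Nextera XT. The columns sum to between 956209 and 1059424, and how they were scaled is not given in the sources used here. Symbols and coordinates came from GENCODE M21 (35768 of 36065 identifiers matched). Tests used log2(value + 1), a scale on which changes of low genes come out too small, for the 12249 genes that reached 1 in 2 or more libraries. A single limma model (3.58.1, R 4.3.3) held all 3 groups, without a replicate block, with Benjamini-Hochberg adjustment over the genes of a comparison (threshold 0.05). A p-value here reflects how much these libraries vary, which may be technical. The fit was run on simulated data with independent noise, which says nothing of a library that stands apart. How often it finds a change of a given size is not reported here. Near-identical records were sought with blastn 2.17.0. The members, the lists of related genes and the grouping by compartment were chosen with earlier results of these data known. Differences are named for a fixed roster of main chaperones and, in each comparison, for up to 6 members a side with the smallest p and groups that did not overlap. Dnajc3, Dnajc5b, Hspb11, Dnajb9, Dnajb11, Dnajc7 and Cct8 were chosen after their values were seen. Proteins were not analysed here.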

Additional observations from a re-analysis of the deposited data

How the results depend on the processing

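No chaperone gene was called in any of the 3 comparisons under any of the 15 alternatives, and the members' median log2 change ranged over them from -0.03 to 0.03 in CBR against DMSO, from -0.19 to 0.01 in CBR+SAM against CBR (0.01 without CBR+SAM replicate 2) and from -0.17 to -0.02 in CBR+SAM against DMSO. The number of genes called in the whole table was 0 in CBR against DMSO, 1 with the compared groups alone, and 0 to 2 when libraries were left out in turn. It was 1 in CBR+SAM against CBR, 0 with a pseudocount of 0.1, without a filter, with a mean of at least 10 or with protein-coding genes alone, and 0 to 9 with libraries left out. It was 1 in CBR+SAM against DMSO, 0 in the same settings and with the compared groups alone, and 0 to 3 with libraries left out. In the main fit, members at an unadjusted p under 0.05 numbered 2 in CBR+SAM against CBR, beside 3.09% of all genes. In CBR+SAM against DMSO they numbered 1, beside 2.14%. These counts were not the same in all alternatives. Without CBR+SAM replicate 1, CBR+SAM replicate 2 alone stood for its group and was assumed to vary like the others. The members' median log2 change was then -0.19 against CBR and -0.17 against DMSO, beside 0.03 and 0.00 over all genes. The same limit holds for replicate 1 when replicate 2 is left out. With every library scaled to the same total, negative changes of members numbered 34 (beside 30) for CBR against DMSO, 46 (beside 43) for CBR+SAM against CBR and 49 (beside 39) for CBR+SAM against DMSO, while the median over all genes moved the same way, to -0.04, -0.02 and -0.08 in these comparisons. The replicate block left the counts of called genes at 0, 1 and 1 and those of members at 0. Deviations of equal replicate numbers correlated across genes at 0.39 between CBR and DMSO, 0.09 between CBR+SAM and CBR and 0.22 between CBR+SAM and DMSO, and nothing in the labels pairs the samples. Of 1551 single-gene values recomputed, 18 changed sign and moved by at least 1 standard error, among them Hspa8 in CBR against DMSO, and none came under an adjusted p of 0.05. Joining members with near-identical copies was chosen after seeing the data. The depth is not given, so low values such as those of Hspa1b cannot be told from 0 by counting error.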

Other observations

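The record of Cct6a, the subunit of the CCT ring missing from the members because GENCODE M21 lists it as a processed transcript, stood at 2259 and 3344 with CBR+SAM, at 2887 and 2899 with CBR, and at 2924 and 2809 with DMSO. It spans chromosome 5 from 129786998 to 129846371 in mm10, and its level was above that of every other CCT subunit gene. A 129-base processed pseudogene, Gm48789, 97.7% identical to a stretch of a Dnajb14 transcript, had a mean of 5673, while Dnajb14 had one of 37.9, so the value joined with copies says nothing of Dnajb14. Gm16550, a processed pseudogene record of 126 bases, was 100% identical to a Dnajc9 transcript over 125 bases. The division of reads between these records is therefore uncertain. Gm16550 stood at 8.34 and 8.59 with CBR+SAM, at 0 and 0.000873 with CBR, and was listed at 0 in both DMSO libraries. Dnajc9 stood at 127 and 106 with CBR+SAM, at 124 and 133 with CBR, and at 132 and 135 with DMSO. The co-chaperone gene Hspbp1, left out by the rule, stayed at or below 0.356 in all libraries, and Hspbap1 lay between 19.1 and 24.1.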
